A study of Mus musculus with 11 samples.

Results

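This report describes how ribosome-bound RNA of forebrain excitatory neurons differed between postnatal day 21 (P21) and postnatal day 7 (P7), the net change over 14 days of mouse brain development. Its members are the genes that reached at least 1 TPM in at least 2 of 6 libraries, 3 from P7 and 3 from P21, and 16673 of the 77179 gene IDs measured met that rule. TPM is the share of a library's transcripts that a gene holds after division by transcript length, scaled to the same total in every library. The mice were NEX-RiboTag animals, in which Cre, expressed from the Neurod6 (NEX) locus on a C57BL/6J background, switches on an eGFP-tagged copy of the ribosomal protein Rpl10a. All libraries compared carry the genotype NEX-Cre;Rpl10aeGFP/eGFP, so no library of the comparison lacks the tag or the driver. Cortex and hippocampus were dissected and lysed together, and beads carrying an antibody to GFP pulled down the tagged ribosomes with their RNA (the pull-down). Neurons that do not use the Neurod6 locus are outside what the tag can mark, and values average over cortical layers and hippocampal fields. The study also holds 3 pull-down libraries from P14 and 2 libraries of whole-tissue RNA (input) from P7, one from a NEX-Cre;Rpl10aeGFP/eGFP and one from an Rpl10aeGFP/eGFP genotype. They are given here as points of reference.

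Between P7 and P21 a forebrain excitatory neuron passes from growing its axon and dendrites to working synapses. Immature neurons carry their own set of tubulins, microtubule regulators and polysialylated adhesion molecules, which let the cytoskeleton and the membrane be rebuilt. Mature neurons carry dense synapses, fast ion channels and a large supply of ATP, and many protein families replace an early member by a late one on the way. The pull-down measures RNA bound to ribosomes of the tagged cells, which depends both on how much of a transcript a cell holds and on how much of it is loaded.

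The 6 libraries separated by age. Across genes, Pearson correlations of log2(TPM + 1) ranged from 0.989 to 0.990 among the P7 libraries, from 0.990 to 0.993 among the P21 libraries and from 0.922 to 0.930 between ages, and the first principal component of the 6 libraries, which separated the ages, held 83.8% of the variance. Between 15154 and 15645 genes reached 1 TPM in each of the 6 libraries. TPM keep no record of read depth, so depth is unknown and the spread between libraries of a group is the only measure of precision. The libraries of 1 age are called biological replicates in the labels, which do not say how many animals each holds. Replicate 3 stood apart from the other replicates of its age in sex-linked genes at both ages, with Xist at 3.29 TPM at P7 and 6.02 TPM at P21 against at most 0.646 TPM in the other 4 libraries. P21 replicate 1 had the Y-linked gene Eif2s3y at 6.72 TPM, between replicate 2 (16.2 TPM) and replicate 3 (0.204 TPM) of its age.

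Log2 changes are P21 minus P7 on the log2(TPM + 1) scale, which understates the change of genes with low values. Errors of log2 changes are standard errors of the limma fit, a linear model across all genes, and adjusted p-values are from limma with Benjamini-Hochberg adjustment over the 16673 genes. The fit pools the spread within groups over all 11 libraries. Errors and adjusted p-values therefore also reflect the P14 libraries and the 2 P7 inputs, which differ in genotype. A gene is said to rise or fall where its adjusted p is below 0.05. By that rule 11071 genes changed, 66.4% of those tested, of which 5042 rose (30.2%) and 6029 fell (36.2%). Over all genes the median log2 change was -0.05, with quartiles at -0.46 and 0.38. Of the genes that changed, 1361 rose at least 2-fold (8.16% of those tested) and 1425 fell at least 2-fold (8.55%), and 249 rose and 251 fell at least 4-fold. In 5235 genes every P21 library was above every P7 library and in 6228 genes every P21 library was below. These shares are the background against which each gene group below is to be read, because a group of which 30.2% rose and 36.2% fell did what genes at large did. Median-of-ratios scaling moved the balance to 5575 genes that rose and 5553 that fell, so no direction is claimed for the transcriptome as a whole. Genes named below as the largest rises and falls had to show no overlap between the ages. Separation of the ages in those genes was thus part of the choice.

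**Figure D1:**
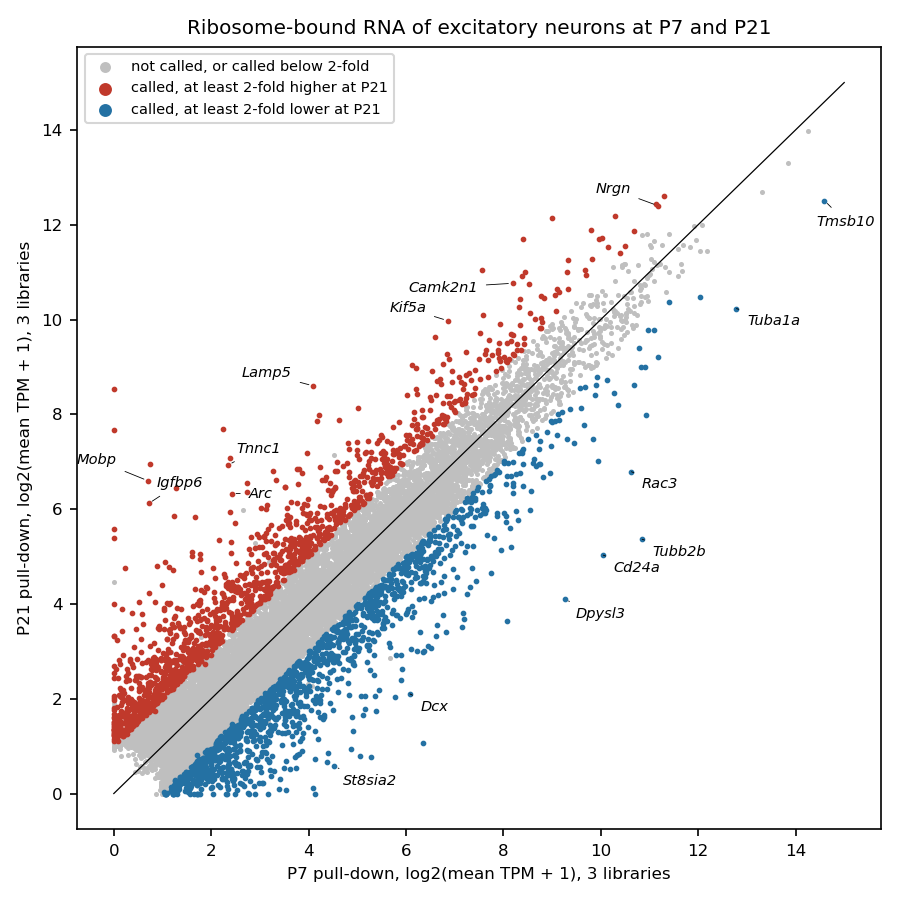
Mean level of each of the 16673 genes at P7 (horizontal) and P21 (vertical), both as log2(mean TPM + 1) over 3 libraries, with the line of equality. Red points are the 1361 genes that rose at least 2-fold and blue points the 1425 that fell at least 2-fold, grey points are all others, and the named genes are described in the text.

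Markers of excitatory neurons were abundant at both ages, and the genes that define the pull-down kept high levels. Rpl10a (ENSMUSG00000037805), whose protein carries the tag, was at 3814, 3736 and 3365 TPM at P7 and 3335, 2149 and 3432 TPM at P21, with a log2 change of -0.32 ± 0.23 that did not pass (limma adjusted p = 0.248). P21 replicate 2 was the low library for this gene, and the ages overlapped otherwise. The P7 inputs, at 996 and 487 TPM, enter the error of Rpl10a too. Neurod6 (ENSMUSG00000037984), the transcription factor gene that drives Cre, was at 168, 145 and 144 TPM at P7 and 73.3, 71.3 and 78.7 TPM at P21 and fell by 1.02 on the log2 scale (limma adjusted p = 2.6e-05). Slc17a7 (ENSMUSG00000070570), which codes for VGLUT1, the transporter that fills vesicles with glutamate, was at 515, 724 and 645 TPM at P7 and 2090.5, 2026 and 2023 TPM at P21, a log2 difference of 1.72 ± 0.10 (limma adjusted p = 1.16e-07). The summed level of the 24 excitatory neuron markers was 5646 to 6081 TPM at P7 and 12740 to 14340 TPM at P21, with 14 that rose and 9 that fell. In the P7 input the sum averaged 5385 TPM, little below the P7 pull-down. The growth-promoting surface protein gene Nrn1 (95.5 to 790 TPM), Camk2a (183 to 835 TPM) and the synaptic pentraxin gene Nptx1 (14.7 to 66.7 TPM) rose most among them, and Mpped1 and Slc17a6 (VGLUT2) were among those that fell most.

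Markers of other cells summed to far less than excitatory markers in the pull-down, and several groups of them were higher at P21. In bulk RNA, more or fewer cells of a type and more or less RNA per cell cannot be told apart. The 20 oligodendrocyte markers, of which 19 were tested, summed to 97.5 to 102.5 TPM at P7 and 572 to 820.1 TPM at P21, and 17 of the 19 rose. The P7 input libraries held 276 and 343 TPM of these markers, less than any P21 pull-down library. The 2 that fell, Ndrg1 (35.9 to 7.64 TPM) and Tspan2 (25.7 to 14.9 TPM), held much of the P7 pull-down sum. Their means in the P7 input were no higher than in the P7 pull-down, at 35.7 and 19.2 TPM. Mobp (ENSMUSG00000032517), a myelin protein gene, was at 0.338, 1.00 and 0.529 TPM at P7 and 79.8, 109 and 98.9 TPM at P21, the largest rise of any gene that met the naming rule (log2 change 5.91 ± 0.22, limma adjusted p = 6.28e-09). Mbp, myelin basic protein, was at 17.6, 17.9 and 17.2 TPM at P7 and 199, 275 and 285 TPM at P21. In both genes P21 replicate 1 was the lowest of its age, and no P21 library reached down to a P7 library. Of 22 astrocyte markers 20 rose and Gpc5 fell, and their sum went from 265 to 351 TPM at P7 to 728 to 909 TPM at P21. The calcium-binding protein gene S100b rose from 2.05 to 31.4 TPM and the gap junction gene Gjb6 from 1.35 to 10.4 TPM, while the water channel gene Aqp4, a defining astrocyte marker, went from 2.97 to 3.83 TPM and did not pass (log2 change 0.29 ± 0.14, limma adjusted p = 0.0975), although it did without P7 replicate 2 (limma adjusted p = 0.0487). Of 17 microglia markers tested of 20 listed, 16 rose, with sums of 34.9 to 43.6 TPM at P7 and 66.7 to 85.7 TPM at P21. The complement gene C1qa went from 2.44 to 5.90 TPM and the lysosomal protein gene Cd68 from 3.80 to 13.8 TPM. Haemoglobin and haem synthesis genes rose in 5 of 5 cases tested of 7 listed, and P21 replicate 2 was the high library (1290 TPM summed, against 656 and 716 TPM in replicates 1 and 3). None of the listed markers of these cells was at 0 in all 6 libraries.

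The summed level of inhibitory neuron markers overlapped between the ages. Their sum was 165 to 181 TPM at P7 and 150.3 to 179 TPM at P21, against 1321 TPM in the P7 input, and of 19 tested of 25 listed 6 rose and 5 fell. Calb2 (calretinin), a member that fell from 49.4 to 19.1 TPM, lost more TPM than the sum did. The other members together therefore stood higher at P21. The gene of the vesicular GABA transporter, Slc32a1, went from 3.27 to 3.23 TPM and did not pass (limma adjusted p = 0.909). Gad1, which makes GABA, rose from 6.27 to 10.7 TPM and Gad2 from 2.14 to 3.35 TPM. The calcium buffer gene Pvalb, a marker of fast-spiking interneurons, was at 0.136, 0.139 and 0.0781 TPM at P7 and 12.2, 14.7 and 14.6 TPM at P21, a log2 difference of 3.72 ± 0.11 (limma adjusted p = 2.77e-09). All P7 libraries were close to 0 and all P21 libraries were well above them. For rises in genes that glia, blood cells or interneurons also express, the part of these cells was not tested, since input was sequenced at P7 only.

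**Figure D2:**
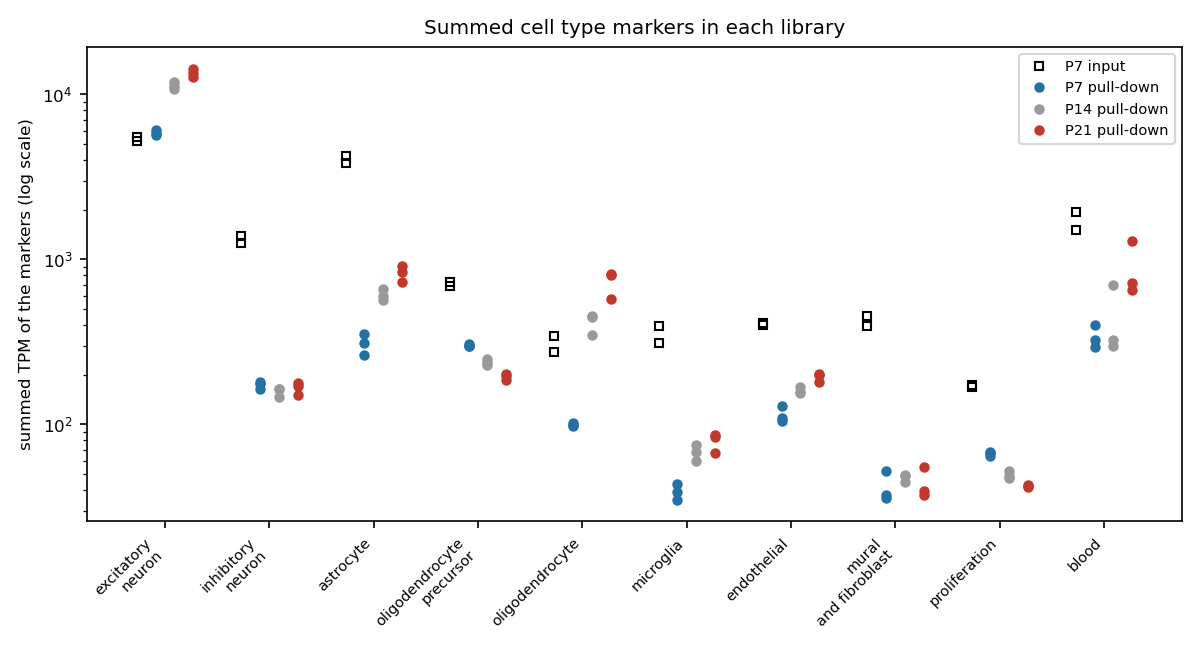
Summed TPM of each cell type's marker list (log scale) in every library, by type along the horizontal axis: open squares are the 2 P7 input libraries, blue, grey and red points the 3 pull-down libraries each of P7, P14 and P21. Excitatory markers averaged 5385 TPM in the inputs and 5864 TPM in the P7 pull-downs, and reached 12740 TPM or more in every P21 library. Inhibitory markers stayed at or below 181 TPM in the P7 and P21 pull-downs against a mean of 1321 TPM in the inputs.

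The genes of immature neurons fell together and by large amounts. Of 31 such genes 29 fell, against 36.2% of all genes, and the median log2 change was -2.16. Together they held 49370 to 55050 TPM at P7 and 11560 to 12910 TPM at P21, so that their share of the transcripts went from 5.21% to 1.21%. Tubb2b (ENSMUSG00000045136), a beta tubulin of growing neurons, was at 2029, 1752 and 1755 TPM at P7, 146, 176 and 209 TPM at P14 and 37.7, 39.4 and 43.5 TPM at P21. The drop between P7 and P21 was -5.49 ± 0.13 on the log2 scale (limma adjusted p = 1.34e-09), the largest of any gene eligible for naming, and the 3 ages did not overlap. Dpysl3 (ENSMUSG00000024501), which encodes the collapsin response mediator protein CRMP4 of growth cones, was at 601, 565 and 670.2 TPM at P7, 68.4, 84.6 and 101 TPM at P14 and 15.3, 15.7 and 17.3 TPM at P21 and had a log2 difference of -5.16 ± 0.13 (limma adjusted p = 1.34e-09). Its relative Dpysl5 went from 267 to 11.4 TPM. Cd24a (ENSMUSG00000047139), a small surface glycoprotein of newborn neurons, was at 1137, 1053 and 992 TPM at P7, 128, 152 and 179.5 TPM at P14 and 28.6, 29.7 and 36.6 TPM at P21, with a log2 difference of -5.03 ± 0.13 (limma adjusted p = 1.74e-09).

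Further members of the list followed the same order of ages. Dcx, which encodes the microtubule-binding protein doublecortin of migrating neurons, was at 71.4, 61.1 and 67.8 TPM at P7 and 3.08, 3.07 and 3.73 TPM at P21. St8sia2, the polysialyltransferase of NCAM in young neurons, was at 23.7, 21.5 and 21.0 TPM at P7 and 0.529, 0.366 and 0.561 TPM at P21. In both genes every P21 library was below every P7 library, as the rule for naming the largest falls required. Trim67, a ubiquitin ligase gene, fell from 37.7 to 0.710 TPM. The transcription factor gene Sox11 fell from 13.8 to 2.09 TPM and Sox4 from 34.4 to 10.4 TPM, and the growth cone protein gene Gap43 fell from 2312 to 590.2 TPM, as the most abundant of these 3 genes, which were picked once their values were known. Ncam1, the substrate of St8sia2 and also chosen afterwards, fell from 92.5 to 31.2 TPM. Dclk1, the doublecortin-like kinase gene, was the 1 member that rose (148 to 233 TPM), and Ina, an intermediate filament gene, did not pass at 144, 159.7 and 145 TPM at P7 and 137, 130.1 and 142 TPM at P21 (limma adjusted p = 0.053). Ina passed as lower without P7 replicate 1 or P21 replicate 3 (limma adjusted p = 0.0394 and 0.0379).

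Other genes with large falls are less often used as markers. Rac3 (ENSMUSG00000018012), a small GTPase of the growing cytoskeleton, was at 1679, 1524 and 1551 TPM at P7 and 114, 110.5 and 105 TPM at P21, a log2 difference of -3.84 ± 0.10 (limma adjusted p = 1.74e-09). Most of the fall was present at P14, when its mean was 328 TPM. Sla, an adaptor protein gene, went from 140.4 to 10.5 TPM, the TGF-beta family ligand gene Lefty2 from 58.4 to 4.23 TPM, Vash2, which encodes a tubulin carboxypeptidase, from 28.4 to 0.914 TPM, and C1qtnf2, Fam131c and Stk32b from 19.8 to 0.594 TPM, 53.8 to 3.11 TPM and 20.0 to 0.817 TPM. By amount rather than ratio the largest loss was that of Tmsb10, an actin-binding beta thymosin, which held 26237, 22561 and 25343 TPM at P7 and 6339, 5778 and 5389.9 TPM at P21. No other gene of the comparison lost as much TPM.

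The summed level of the tubulin genes was lower at P21, and single isotypes went different ways. Of 13 genes tested 7 fell, 3 rose and 3 did not pass, and their summed level went from 15000 to 16750 TPM at P7 to 4586 to 5106 TPM at P21. The alpha tubulin gene Tuba1a was at 7626, 6954 and 6624 TPM at P7 and 1246, 1164 and 1194 TPM at P21, and Tubb3, the neuronal beta tubulin, at 1776, 1605 and 1553 TPM at P7 and 418, 388 and 365 TPM at P21. Tubb5 and Tubb2a fell to less than their lowest P7 library in the same way (1227 to 348 TPM and 2185 to 878 TPM). The 3 that rose were Tubb4a (318 to 491 TPM), Tuba4a (157 to 468 TPM) and Tuba8 (0.772 to 6.39 TPM). Tubulin genes share long stretches of sequence, and how reads were split among them is not stated, which leaves single values uncertain. Of 19 microtubule regulators 14 fell and 5 rose. The stathmin genes Stmn1 (4202 to 1426 TPM) and Stmn2 (1909.6 to 513 TPM), whose proteins take microtubules apart, and Mapt, which encodes tau (428 to 123 TPM), were among the 14. Tppp, which bundles microtubules and is also expressed by oligodendrocytes, rose from 36.4 to 172 TPM.

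Axon guidance genes fell in 28 of 46 cases tested and rose in 5, with a median log2 change of -0.46. Draxin, a secreted repellent, was at 8.31, 6.36 and 5.89 TPM at P7 and 0.175, 0.151 and 0.198 TPM at P21. It was close to 0 in all P21 libraries. The ephrin gene Efnb3 fell from 267 to 56.6 TPM and Rgma, a repulsive guidance molecule gene, from 95.1 to 20.2 TPM. Those that rose included Robo3 (0.970 to 5.02 TPM), the adhesion molecule gene Nrcam (98.2 to 184 TPM) and Slit3 (3.11 to 5.41 TPM). Of 30 classical cadherin and protocadherin genes 15 fell and 5 rose. Within the gamma protocadherin cluster the C3 and C5 variants went opposite ways: Pcdhgc3 was at 26.8, 27.1 and 29.5 TPM at P7 and 5.84, 5.31 and 7.11 TPM at P21 and Pcdhgc5 at 11.5, 17.1 and 28.6 TPM at P7 and 102, 82.9 and 106 TPM at P21. They share their constant exons, so their separation depends on how reads of those exons were divided. Of 21 genes of perineuronal nets and brain matrix 8 rose and 9 fell. Hapln4, a link protein that holds lecticans on hyaluronan, was at 0.490, 1.22 and 0.810 TPM at P7, 7.34, 5.72 and 5.26 TPM at P14 and 29.6, 22.4 and 28.7 TPM at P21, a log2 difference of 3.93 ± 0.16 (limma adjusted p = 1.24e-08), whereas the syndecan gene Sdc3 fell from 294 to 89.3 TPM and tenascin C, Tnc, from 2.98 to 0.440 TPM.

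**Figure D3:**
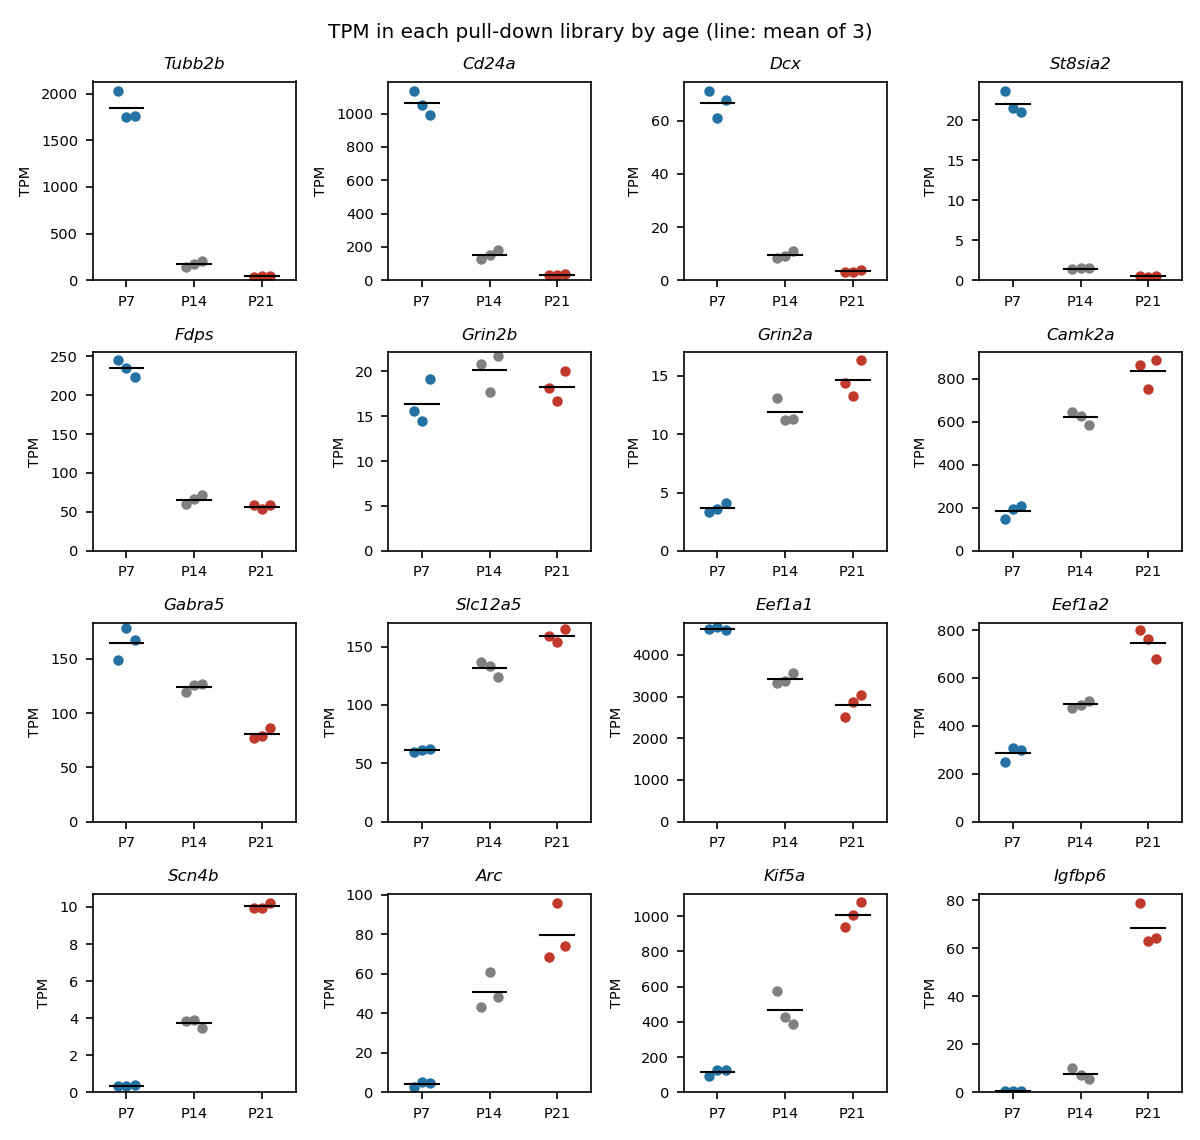
TPM of 16 genes in each of the 9 pull-down libraries by age (blue P7, grey P14, red P21), with a line at the mean of 3 and each vertical axis starting at 0. Tubb2b, Cd24a, Dcx and St8sia2 drop to near 0, Grin2b stays between 14.4 and 21.7 TPM, and Camk2a, Scn4b, Arc and Kif5a stand higher in every P21 library than in any P7 library.

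Genes of glutamate receptors changed in both directions. Summed levels of the NMDA, AMPA and kainate receptor lists were higher at P21. Those of the metabotropic receptors overlapped, at 77.7 to 95.4 TPM at P7 and 84.2 to 94.0 TPM at P21. The NMDA receptor subunit genes summed to 116.5 to 131.6 TPM at P7 and 212.7 to 238.9 TPM at P21. Grin1 held most of that sum at both ages and gained about as much TPM as the sum did. NMDA receptors, which gate calcium entry at synapses, are built from the obligatory subunit GluN1 and modulatory subunits. Grin1 (GluN1) was at 73.4, 87.7 and 79.9 TPM at P7 and 195, 171 and 172 TPM at P21, a log2 difference of 1.15 ± 0.07 (limma adjusted p = 1.45e-07). Grin2a (GluN2A), the subunit of mature synapses, was at 3.34, 3.63 and 4.06 TPM at P7 and 14.4, 13.2 and 16.4 TPM at P21, a log2 difference of 1.74 ± 0.10 (limma adjusted p = 7.26e-08). Grin2b (GluN2B), the subunit of young synapses, was at 15.6, 14.4 and 19.1 TPM at P7 and 18.1, 16.6 and 20.0 TPM at P21, and its ages overlapped (log2 change 0.15 ± 0.11, limma adjusted p = 0.241). Without P7 replicate 3, the highest of its age, Grin2b passed at 0.26 on the log2 scale (limma adjusted p = 0.0413). The level of Grin2b exceeded that of Grin2a in the mean of either age, so the shift was a rise of GluN2A beside a GluN2B with no change that passed. Grin3a (GluN3A), found in young synapses, and Grin2d (GluN2D) fell from 16.0 to 4.26 TPM and from 8.78 to 2.93 TPM. Grin2c, best known from the cerebellum, rose from 0.433 to 3.45 TPM.

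AMPA receptors carry fast excitatory transmission, with pore subunits Gria1 to Gria4 and auxiliary proteins that set their gating and trafficking. Of 15 genes 9 rose and 4 fell, and their sum was 4266 to 4496 TPM at P7 and 6199 to 7399 TPM at P21. Gria3 rose from 17.1 to 52.9 TPM, while Gria1 (48.6 to 67.9 TPM), Gria2 (38.1 to 48.1 TPM) and Gria4 (16.3 to 18.9 TPM) rose less. The call of Gria2 was lost without P21 replicate 3 (limma adjusted p = 0.0586) and its log2 change of 0.34 was 0.21 without P7 replicate 1. That of Gria4 was lost without P7 replicate 1 or 2 or P21 replicate 1 or 3 (limma adjusted p = 0.175, 0.0607, 0.108 and 0.134). Auxiliary subunits of the TARP family went different ways. Cacng4 was at 105, 92.2 and 83.7 TPM at P7 and 16.0, 17.1 and 16.6 TPM at P21 and Cacng3 at 42.0, 58.5 and 56.0 TPM at P7 and 221, 195 and 221 TPM at P21. Neither gene had overlapping ages. Cacng2 of the same family rose from 15.4 to 27.6 TPM, and Cacng8 went from 70.8 to 78.6 TPM and did not pass (limma adjusted p = 0.175), although it passed as higher without P21 replicate 3 (limma adjusted p = 0.0122). Gsg1l rose from 14.4 to 58.6 TPM, and the cornichon genes Cnih2 and Cnih3 fell from 2576 to 1537 TPM and 136 to 113 TPM. Olfm1, a secreted protein found with AMPA receptors, had 1 of the largest gains in amount of any gene, at 1212, 1319 and 1246 TPM at P7 and 4991, 4826 and 4183 TPM at P21. Olfm1 is counted in the sum of the list and gained more TPM than that sum, so the other members together stood lower at P21. Among 7 kainate receptor genes 4 fell, of which the auxiliary subunit gene Neto2 fell most (52.7 to 17.9 TPM), and Neto1 (23.9 to 37.3 TPM), Grik5 and Grik4 rose. Grik5 (141 to 197 TPM) gained more TPM than the sum of the kainate list (261 to 288 TPM), so its other members together stood lower at P21. Of 7 metabotropic glutamate receptor genes 1 fell and 2 rose. Grm5 fell from 21.6 to 15.6 TPM (a log2 change of -0.43, which was -0.27 without P7 replicate 3), Grm2 and Grm4 rose by 0.23 and 0.36 on the log2 scale, and the other 4 did not pass.

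Genes of the postsynaptic density rose in 28 of 39 cases and fell in 6, with a median log2 change of 0.84, against 30.2% and 36.2% of all genes. Without P7 replicate 3 or P21 replicate 2 the number that fell was 3. Camk2a (ENSMUSG00000024617), the calcium-dependent kinase of synaptic plasticity, was at 147, 194 and 209.8 TPM at P7, 646, 628 and 586 TPM at P14 and 865, 753 and 886 TPM at P21, a log2 difference of 2.19 ± 0.12 (limma adjusted p = 7.45e-08). Camk2b, the companion subunit, was at 328, 342 and 343 TPM at P7 and 347, 344 and 345 TPM at P21 and did not pass (limma adjusted p = 0.498). The inhibitor of the kinase, Camk2n1, rose from 291 to 1739 TPM, and its relative Camk2n2 fell from 950.2 to 523 TPM. Kalrn, a guanine nucleotide exchange factor of dendritic spines, rose from 30.7 to 150.5 TPM, and Dlg1 (SAP97), a scaffold, from 11.3 to 56.2 TPM. Dlg4 (PSD-95), the main scaffold, rose from 672 to 1161 TPM. Neurogranin, Nrgn, which binds calmodulin in dendrites, was at 2198, 2451 and 2268 TPM at P7 and 5868, 5018 and 5355 TPM at P21, among the 8 largest gains in amount.

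On the presynaptic side 37 of 50 genes rose and 6 fell, with a median log2 change of 0.64. The SNARE gene Snap25 was at 454, 594 and 597 TPM at P7 and 1748, 1368 and 1670 TPM at P21 (log2 change 1.54 ± 0.11, limma adjusted p = 6.09e-07), the calcium sensor gene Syt1 went from 191 to 349.5 TPM and the vesicle protein gene Syp from 637 to 1604 TPM, 3 genes picked once their values were known. Larger rises were in genes of low level: Syt12, a calcium-independent synaptotagmin, was at 1.85, 2.87 and 2.64 TPM at P7 and 24.3, 21.7 and 27.6 TPM at P21, and the vesicle SNARE gene Vamp1 at 4.19, 5.25 and 4.53 TPM at P7 and 28.6, 26.0 and 29.9 TPM at P21. The vesicular zinc transporter gene Slc30a3 rose from 42.5 to 174 TPM. Those that fell were Rab3b (139 to 38.2 TPM), Doc2a (88.0 to 39.6 TPM), Doc2b (48.2 to 18.6 TPM), Syt4 (112 to 59.1 TPM), Slc17a6 (26.0 to 11.5 TPM) and the synapsin gene Syn3, the last named after its value was seen. Each of the 5 with values given had all P21 libraries below all P7 libraries.

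Genes for GABA receptors and chloride transport, which decide how an excitatory neuron responds to inhibition, rose in 9 of 22 cases and fell in 4. The alpha subunit gene Gabra5, typical of young and extrasynaptic receptors, was at 149, 178 and 168 TPM at P7 and 77.0, 78.9 and 85.8 TPM at P21, and every P21 library was below every P7 library. Gabrd, the delta subunit of tonic receptors, rose from 6.01 to 41.6 TPM. Slc12a5 (KCC2), which pumps chloride out and makes GABA hyperpolarising, was at 59.9, 61.4 and 62.5 TPM at P7 and 159, 154 and 165 TPM at P21, a log2 difference of 1.36 ± 0.05 (limma adjusted p = 5.92e-09). Slc12a2 (NKCC1), which brings chloride in, was at 3.79, 3.92 and 4.00 TPM at P7 and 3.01, 4.16 and 3.92 TPM at P21 and did not pass (limma adjusted p = 0.562).

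Of 12 sodium channel subunit genes 7 rose and 3 fell. Scn4b, the beta subunit of resurgent currents, was at 0.369, 0.346 and 0.374 TPM at P7 and 9.93, 9.96 and 10.2 TPM at P21, and Scn2b went from 23.1 to 127 TPM. No P21 library of these genes reached the P7 range. Among pore subunits Scn8a (Nav1.6) rose from 20.2 to 28.5 TPM and Scn1a from 3.48 to 8.06 TPM, the embryonic Scn3a fell from 5.58 to 2.40 TPM, and Scn2a did not pass at 32.0, 35.0 and 41.8 TPM at P7 and 34.3, 32.5 and 39.7 TPM at P21 (limma adjusted p = 0.82).

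Potassium channel genes rose in 39 of 54 cases tested and fell in 5 (3 without P7 replicate 1 or P21 replicate 1 or 2), with a median log2 change of 0.52. Kcna2, a channel of axons, rose from 5.23 to 23.2 TPM, its cytoplasmic subunit gene Kcnab2 from 44.3 to 183 TPM, and Kcnip3, a calcium sensor of A-type channels, from 26.7 to 124 TPM. Kcnip1, of the same sensor family, went the other way at 30.3, 33.4 and 27.9 TPM at P7 and 6.87, 7.88 and 7.71 TPM at P21. Kcnc2 (Kv3.2), a fast-spiking channel, rose from 2.25 to 11.4 TPM and Kcnj6 (GIRK2) from 3.20 to 9.08 TPM, both picked once their values were known. Of 20 calcium and HCN channel genes 10 rose and 6 fell. HCN channels carry the pacemaker current: Hcn3 and Hcn4 fell from 29.0 to 5.69 TPM and from 8.19 to 1.34 TPM. The accessory subunit genes Cacnb4 and Cacnb3 rose from 13.6 to 36.5 TPM and 326 to 657 TPM, and the T-type channel gene Cacna1h fell from 21.4 to 12.7 TPM.

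Genes of the axon and its transport moved in both directions. Kif5a (ENSMUSG00000074657), a kinesin-1 heavy chain that carries cargo down axons, was at 91.0, 127 and 126 TPM at P7, 578, 429 and 389.6 TPM at P14 and 935, 1009 and 1077 TPM at P21, a log2 difference of 3.14 ± 0.16 (limma adjusted p = 3.52e-08). Its relative Kif5c was at 121, 129 and 160 TPM at P7 and 177, 192 and 222 TPM at P21, a smaller rise. Kif21b, which limits microtubule growth, was at 89.3, 98.6 and 113 TPM at P7, 56.3, 65.9 and 73.9 TPM at P14 and 16.1, 16.9 and 18.8 TPM at P21 and fell mainly after P14. Of 21 kinesin genes tested of 30 listed 9 rose and 7 fell. Among 18 genes of neurofilaments and the axon initial segment 8 rose and 3 fell (5 without P7 replicate 1). Cntnap1, which seals the myelin loops to the axon at the paranode, was at 1.76, 2.81 and 2.68 TPM at P7 and 30.9, 27.4 and 31.3 TPM at P21, and the neurofilament genes Nefm and Nefh rose from 46.8 to 117 TPM and 5.33 to 13.9 TPM. Peripherin, Prph, fell from 12.4 to 5.58 TPM.

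Calcium-binding genes rose in 19 of 27 cases and fell in 4. Tnnc1 (ENSMUSG00000091898), the slow troponin C better known from muscle, was at 4.85, 4.05 and 3.38 TPM at P7, 39.4, 28.2 and 25.3 TPM at P14 and 126, 123 and 114 TPM at P21, a log2 difference of 4.59 ± 0.17 (limma adjusted p = 6.28e-09). Calb1 (calbindin) rose from 10.8 to 57.5 TPM and Calb2 (calretinin) fell from 49.4 to 19.1 TPM. Other large rises of the data lay outside any list of neuronal function. Efhd2, a calcium-binding actin regulator, was at 15.4, 18.1 and 17.8 TPM at P7 and 256, 218 and 217 TPM at P21, Fam107a, an actin-associated gene, at 3.00, 5.01 and 4.69 TPM at P7 and 116, 139.6 and 146 TPM at P21, and Tcap, a titin-binding protein gene of muscle, at 0.783, 1.09 and 1.31 TPM at P7 and 30.6, 28.5 and 26.1 TPM at P21. Igfbp6 (ENSMUSG00000023046), which binds insulin-like growth factors, was at 0.536, 0.782 and 0.615 TPM at P7, 9.99, 7.36 and 5.52 TPM at P14 and 78.7, 62.8 and 64.2 TPM at P21. Most of its gain in TPM came after P14. Ighm, the immunoglobulin mu heavy chain gene, was at 0.762, 1.31 and 2.02 TPM at P7 and 57.4, 43.6 and 70.5 TPM at P21, with a wide spread among the P21 libraries, all of which lay above P7. Chn1os1, annotated antisense to the chimaerin gene Chn1, was listed at 0 in all 3 P7 libraries and stood at 65.3, 43.0 and 33.0 TPM at P21. Chn1 itself rose from 439.6 to 1451 TPM, and without knowledge of strand the reads of the 2 genes cannot be told apart.

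Ratios within pairs of related genes describe how far an earlier gene gave way to a later one. The 32 pairs of an earlier and a later gene were chosen from general knowledge with earlier results of these data known. Counts of pairs therefore describe this choice and are no test. The log2 ratio of the later to the earlier gene, each as TPM + 1, was taken in every library. In 27 pairs the ratio was higher in every P21 library than in any P7 library, in 2 it was lower, and in 3 the ages overlapped. Among all 16673 single genes, every P21 library was above every P7 library in 5235 and below in 6228. No such share was computed for ratios of other pairs. The largest shift was that of Tubb4a over Tubb2b, whose mean log2 ratio went from -2.53 at P7 to 1.49 at P14 and 3.58 at P21. Cacng3 over Cacng4 went from -0.84 to 3.60 and Tuba4a over Tuba1a from -5.49 to -1.36. Both genes of a pair contributed in 15 of the 32, in which the earlier gene fell and the later gene rose. In 12 pairs the later gene was below the earlier one at P7 and above it at P21, as for Kif5a over Kif5c (-0.26 to 2.35), Camk2a over Camk2b (-0.89 to 1.27), Map1a over Map1b (-1.33 to 0.92), Scn2b over Scn3b (-2.02 to 1.06) and Syt7 over Syt4 (-0.88 to 0.68).

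Several familiar switches were incomplete or absent at P21. The mean log2 ratio of Grin2a to Grin2b went from -1.89 at P7 to -0.71 at P14 and -0.30 at P21, still below 0. Eef1a2 over Eef1a1, the pair of elongation factor 1 alpha, went from -4.02 to -1.91, with Eef1a1 at 4629, 4658 and 4594 TPM at P7 and 2501, 2879.5 and 3038 TPM at P21 and Eef1a2 at 249, 309 and 298 TPM at P7 and 802, 764 and 678 TPM at P21. The ages of Dlg4 over Dlg3, Cplx1 over Cplx2 and Nrgn over Pcp4 overlapped. Ldha over Ldhb, the muscle and heart forms of lactate dehydrogenase, went the opposite way to the order assumed, from above 0 at P7 to -0.38 at P21, so that its order turned as well, as Ldhb rose from 123 to 408 TPM. Actl6b over Actl6a also fell, from 5.90 to 5.25, as the neuronal chromatin subunit gene Actl6b fell from 359 to 213 TPM. Dnmt3a over Dnmt1 moved little between the end points and peaked at P14 (0.49, 1.64 and 0.80).

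Genes induced by neuronal activity rose in 26 of 34 cases tested and fell in 4, with a median log2 change of 1.36. These genes are transcribed within minutes of synaptic calcium entry and code for transcription factors and for proteins that act at synapses. Their promoters often carry the half-site TGACG of the cAMP response element, which CREB binds. The windows of 2 such genes from RefSeq (GRCm38.p6), from 250 bases before to 50 after the start, are shown because they hold that motif. Fos lies at chr12:85473640-85473939 on the plus strand and Fosb at chr7:19309996-19310295 on the minus strand, and capitals mark TGACG on either strand.
Fos: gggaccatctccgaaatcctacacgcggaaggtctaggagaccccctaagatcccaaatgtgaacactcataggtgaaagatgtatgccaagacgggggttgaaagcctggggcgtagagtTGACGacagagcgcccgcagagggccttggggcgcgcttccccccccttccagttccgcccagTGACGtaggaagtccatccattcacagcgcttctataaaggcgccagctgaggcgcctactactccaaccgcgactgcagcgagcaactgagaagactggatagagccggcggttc
Fosb: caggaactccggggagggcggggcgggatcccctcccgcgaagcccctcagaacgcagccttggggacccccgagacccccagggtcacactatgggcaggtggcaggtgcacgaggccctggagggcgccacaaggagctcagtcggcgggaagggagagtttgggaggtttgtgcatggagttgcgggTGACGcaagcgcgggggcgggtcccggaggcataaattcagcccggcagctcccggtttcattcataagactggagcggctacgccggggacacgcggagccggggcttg
The motif occurs 2 times in the window of Fos and 1 time in that of Fosb. Of the list's 35 genes 26 had a window, and 18 of these held TGACG in at least 1, which was 21 of 38 windows (55.3%) against 20.8% of all 32851 promoter windows in the table. The motif was chosen after the expression values were seen, and a match is a description of the letters, not of binding.

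Among the transcription factors, Fos was at 2.54, 4.96 and 3.88 TPM at P7, 24.0, 24.1 and 22.9 TPM at P14 and 22.1, 26.7 and 22.8 TPM at P21, a log2 difference of 2.40 ± 0.17 (limma adjusted p = 4.08e-07). Fosb, of the same family, was at 0.569, 0.748 and 0.417 TPM at P7 and 7.18, 4.90 and 5.60 TPM at P21. These genes, picked once their values were known, did not overlap between P7 and P21, and Fos had reached its P21 level by P14. Egr1, a zinc finger factor, rose from 13.5 to 107 TPM and Npas4, a factor specific to calcium signals in neurons, from 1.85 to 7.45 TPM. Among effectors Arc (ENSMUSG00000022602), which drives the removal of AMPA receptors from synapses, was at 2.84, 5.39 and 4.89 TPM at P7, 43.1, 61.1 and 48.2 TPM at P14 and 68.7, 95.8 and 73.8 TPM at P21, a log2 difference of 3.92 ± 0.19 (limma adjusted p = 3.31e-08). The pentraxin gene Nptx2, which gathers AMPA receptors, rose from 10.5 to 87.2 TPM, the neurotrophin gene Bdnf from 5.87 to 20.5 TPM and Homer1 from 49.9 to 107 TPM. The 4 that fell were the kinase gene Sik1 (5.59 to 2.22 TPM), Nr4a3 (20.9 to 13.4 TPM), Klf2 (5.91 to 3.55 TPM) and Fosl2, the last named after its value was seen.

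Cholesterol synthesis genes moved down together. Of 26 genes 23 fell, with a median log2 change of -1.14, and the summed level went from 1962 to 2013 TPM at P7 to 949 to 964 TPM at P21. Growing neurons make membrane sterol themselves through this pathway, which starts from acetyl-CoA and is switched by the factor SREBP2. SREBP2 acts on promoters with sterol elements next to CCAAT boxes, which NF-Y binds. The RefSeq windows (GRCm38.p6) of 3 early enzymes are shown, of which Hmgcs1 and Idi1 were picked once their values were known: Hmgcs1 at chr13:119690101-119690400 and Idi1 at chr13:8885356-8885655 on the plus strand and Acat2 at chr17:12960676-12960975 on the minus strand. Capitals mark CCAAT (its reverse complement, ATTGG, on the other strand) and CACCCCAC, a form of the sterol element, on either strand.
Hmgcs1: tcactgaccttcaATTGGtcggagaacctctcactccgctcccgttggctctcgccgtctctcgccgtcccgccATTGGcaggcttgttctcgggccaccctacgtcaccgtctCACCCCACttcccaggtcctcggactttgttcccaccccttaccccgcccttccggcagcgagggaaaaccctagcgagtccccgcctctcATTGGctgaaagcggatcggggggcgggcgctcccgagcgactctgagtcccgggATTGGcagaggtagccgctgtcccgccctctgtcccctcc
Idi1: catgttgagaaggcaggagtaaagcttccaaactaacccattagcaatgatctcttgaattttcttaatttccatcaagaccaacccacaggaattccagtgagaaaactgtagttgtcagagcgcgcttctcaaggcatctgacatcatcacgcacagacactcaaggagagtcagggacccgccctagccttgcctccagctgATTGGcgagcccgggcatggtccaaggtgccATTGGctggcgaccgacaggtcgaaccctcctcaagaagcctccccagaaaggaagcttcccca
Acat2: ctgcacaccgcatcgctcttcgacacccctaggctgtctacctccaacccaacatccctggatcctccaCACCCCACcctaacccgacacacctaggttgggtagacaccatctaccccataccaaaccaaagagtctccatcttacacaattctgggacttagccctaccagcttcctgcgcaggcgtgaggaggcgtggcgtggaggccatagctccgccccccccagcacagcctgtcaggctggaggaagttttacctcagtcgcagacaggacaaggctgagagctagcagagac
Hmgcs1 held 4 CCAAT boxes and 1 CACCCCAC, Idi1 2 CCAAT boxes, and Acat2 1 CACCCCAC and 0 CCAAT boxes. Of 18 genes of the list with a window, 17 held CCAAT, in 17 of 21 windows (81.0%) against 37.4% of all 32851 windows, and 2 held CACCCCAC, in 2 of 21 windows (9.52%) against 2.87%. Acat2 was the 1 gene of the 18 without CCAAT, which is why it is shown. The 2 genes with CACCCCAC, Hmgcs1 and Acat2, are both among the 3 printed. These motifs were chosen with earlier results of these data known. A match describes letters, not binding, and its part in the fall was not tested.

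Along the pathway the listed synthesis enzymes fell, apart from Ebp. Acat2, which joins 2 acetyl-CoA, was at 106, 103 and 100 TPM at P7 and 27.6, 28.9 and 27.2 TPM at P21, and Hmgcs1, the next enzyme, at 469, 394 and 409 TPM at P7 and 111, 119.9 and 136 TPM at P21. For both enzymes all P21 libraries were below all P7 libraries. Idi1 fell from 71.8 to 24.1 TPM, Fdps (ENSMUSG00000059743), which makes farnesyl diphosphate, was at 245, 235 and 223 TPM at P7, 59.7, 66.2 and 71.3 TPM at P14 and 58.5, 53.7 and 58.3 TPM at P21, and Sqle, which opens the sterol branch, fell from 123 to 34.3 TPM. The log2 change of Fdps was -2.03 ± 0.08 (limma adjusted p = 1.12e-08), and nearly all of it was present at P14. The 3 that rose were Srebf2, the gene of SREBP2 (log2 change 0.17 ± 0.05), Ebp (11.2 to 17.8 TPM) and Cyp46a1 (45.9 to 135 TPM). Cyp46a1 does not make cholesterol but hydroxylates it for export from neurons. The call of Srebf2 was lost without P7 replicate 1 or P21 replicate 1 (limma adjusted p = 0.0651 and 0.0721).

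The protein synthesis machinery fell by small amounts across many genes. Ribosomal protein genes fell in 55 of 81 cases and rose in 5 (3 without P7 or P21 replicate 2), with a median log2 change of -0.41. Their summed share of transcripts was 12.0% to 12.7% at P7 and 9.10% to 10.5% at P21, without overlap of the ages. The largest falls were those of Rpl10 (562 to 234 TPM), Rps26 (2001 to 879.9 TPM) and Rpl12 (27.3 to 11.8 TPM), and the largest rises those of Rps12 (350.3 to 596 TPM), Rpl9 (2052 to 3029 TPM) and Rps21 (2464 to 3062 TPM, 0.01 on the log2 scale after quantile normalisation). Many of these genes have near-identical pseudogene copies, and how reads were shared out between them is not stated, which leaves single values uncertain. Translation factors fell in 33 of 49 cases and rose in 5. Eif4g2 and Eif4g1, scaffolds of initiation, fell from 959 to 389.9 TPM and from 199.8 to 99.8 TPM, and Eef2k, the kinase that halts elongation, from 36.6 to 17.8 TPM. Among those that rose were Eef1a2, the elongation factor of mature neurons and muscle, given among the pairs above, and the initiation factor genes Eif1 (965 to 1436 TPM) and Eif5b (7.28 to 10.1 TPM). Proteasome and ubiquitin genes fell in 19 of 34 cases (12 after median-of-ratios scaling), all by less than 2-fold, and the ATPase subunit gene Psmc5 rose from 142 to 248 TPM. Selenow, a selenoprotein gene and the second most abundant of all genes tested at P7, went from 19629 to 16146 TPM, a fall of 0.28 on the log2 scale that turned to a rise of 0.77 after quantile normalisation.

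Genes of energy supply rose. Of 74 nuclear-encoded genes of oxidative phosphorylation 56 rose and 2 fell, at a median log2 change of 0.30, and their summed level was 39330 to 42740 TPM at P7 and 58150 to 61400 TPM at P21. Most rises were small and 6 reached 2-fold. Cox8a, a subunit of cytochrome c oxidase, was at 2188, 2493 and 2868 TPM at P7 and 6150.2, 6272 and 6227 TPM at P21, a log2 difference of 1.31 ± 0.09 (limma adjusted p = 3.92e-07). Ndufa13 of complex I and Uqcr11 of complex III rose from 126 to 270.1 TPM and 1441 to 3022 TPM. The 2 that fell were Sdhd (171 to 144 TPM) and Ndufc2 (292 to 258 TPM), whose call was lost without P21 replicate 2 (limma adjusted p = 0.0783). All 13 mitochondrially encoded mRNAs rose, by log2 changes of 0.93 (mt-Nd6) to 2.22 (mt-Co2), and their sum went from 6765 to 8787 TPM at P7 to 19630 to 26740 TPM at P21. These transcripts are read by mitochondrial ribosomes, which carry no Rpl10a, and in the P7 input they summed to 124000 TPM on average, so the pull-down holds them at a low level and their carry-over from other RNA at each age was not tested. Nuclear copies of mitochondrial sequence, among them Gm29216 and Gm28661, rose with them and cannot be separated from them here.

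Glucose uptake and glycolysis genes rose in 22 of 28 cases tested and fell in 5 (3 without P21 replicate 2), with a median log2 change of 0.74. Aldoc, the brain aldolase and an astrocyte marker as well, went from 11.1 to 51.1 TPM, and Slc2a1, the glucose transporter of blood vessels and glia, from 3.35 to 13.8 TPM. Astrocyte markers rose as given above, and of 12 endothelial markers tested 7 rose and 2 fell, with a median log2 change of 0.52 that was -0.13 among genes averaging 5 TPM or more. The part of these cells was not tested. Ldhb, given among the pairs, rose in every P21 library. The lactate and pyruvate carriers Slc16a7 (12.1 to 7.96 TPM) and Slc16a1 (5.67 to 4.71 TPM) fell, as did the regulator gene Pfkfb3 (8.32 to 5.98 TPM). The call of Slc16a1 was lost without P7 replicate 2 or P21 replicate 1 or 2 (limma adjusted p = 0.129, 0.0817 and 0.0866).

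**Figure D4:**
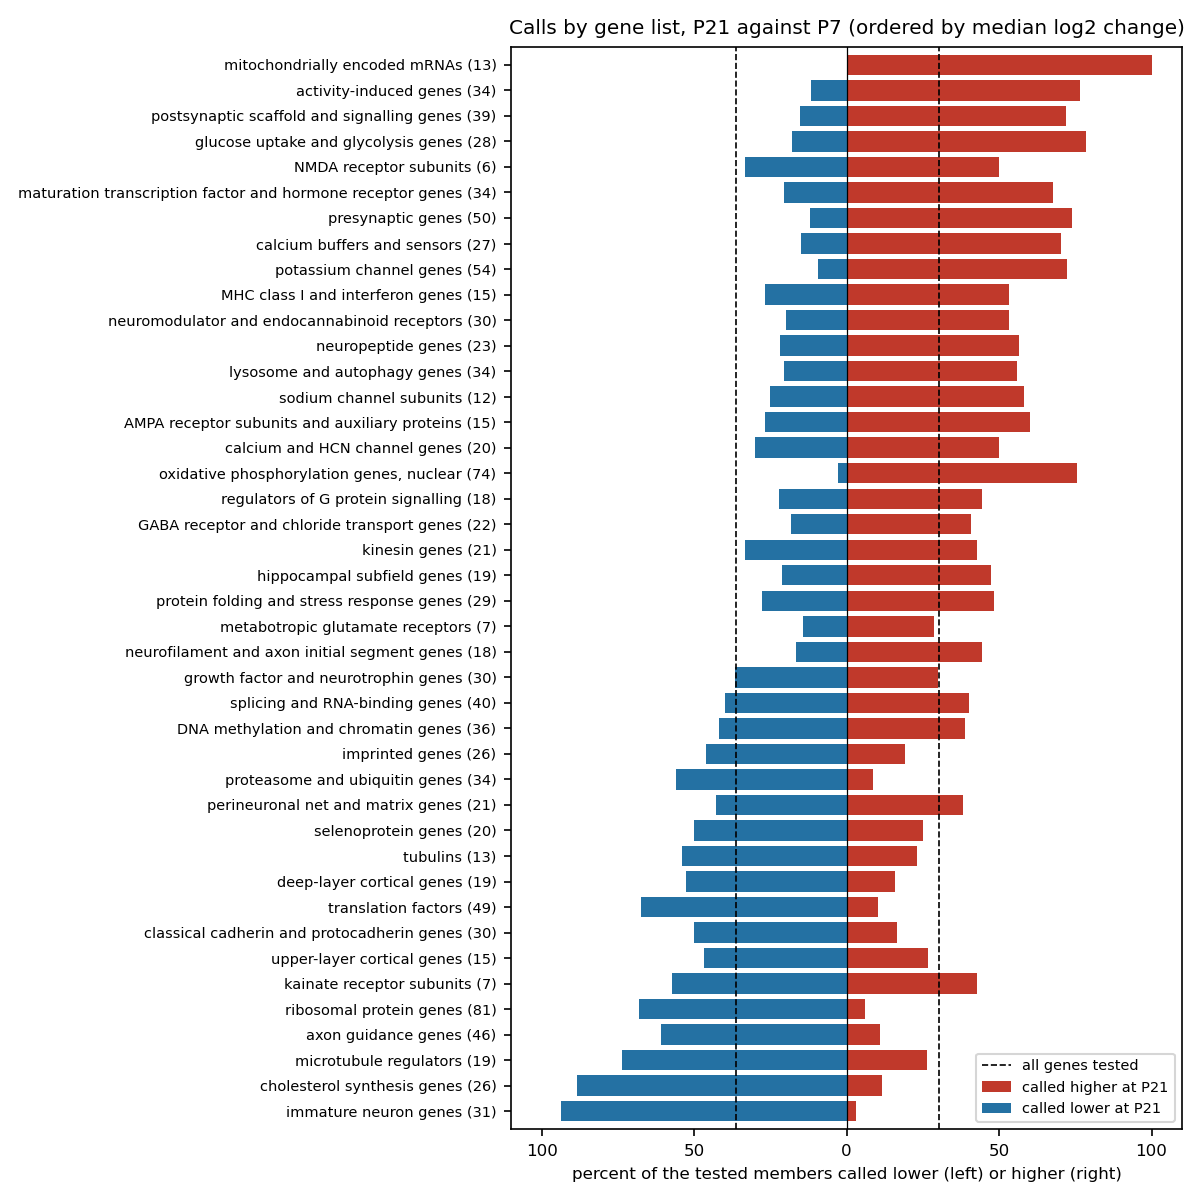
Percent of the tested members of each of 42 gene lists that fell (blue, left) or rose (red, right) from P7 to P21, with the number of members tested in brackets, ordered by the median log2 change. The dashed lines are the shares of all 16673 genes, 36.2% that fell and 30.2% that rose; immature neuron and cholesterol genes stand at one end, mitochondrially encoded mRNAs and activity-induced genes at the other.

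Transcription factors linked to neuronal maturation rose in 23 of 34 cases tested and fell in 7. Leading the rise were the clock-output factors Hlf (7.76 to 39.0 TPM) and Dbp (a log2 change of 1.76, to 53.4 TPM) and the clock gene Per3 (1.58 to 6.49 TPM). Klf7, which promotes axon growth, was at 27.4, 28.3 and 34.5 TPM at P7 and 6.79, 7.75 and 9.37 TPM at P21 and fell, as did Nfib (19.7 to 12.3 TPM) and the clock repressor gene Cry1 (12.4 to 7.05 TPM). The labels give no hour of dissection, so time of day and age cannot be told apart for the clock genes. Chromatin genes were balanced, with 14 of 36 that rose and 15 that fell, none of the rises reaching 2-fold. The high-mobility-group gene Hmgb3 fell from 190 to 59.8 TPM and Hmgn2 from 459.6 to 242 TPM, whereas Hdac11 rose from 57.3 to 115 TPM and the histone variant genes H2afy (macroH2A1) and H2afv (H2A.Z.2) from 35.2 to 63.3 TPM and 31.6 to 55.9 TPM. Splicing and RNA-binding genes were also balanced, at 16 of 40 each way. Mbnl2, a splicing factor of the adult pattern, was at 8.28, 12.3 and 14.0 TPM at P7 and 69.2, 66.2 and 73.8 TPM at P21, a log2 difference of 2.53 ± 0.15 (limma adjusted p = 1e-07). The stem-cell RNA-binding gene Msi1 fell from 26.3 to 11.8 TPM while its relative Msi2 rose from 3.96 to 10.4 TPM, and Hnrnpa1 fell from 663 to 277 TPM.

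Of 15 genes that mark upper cortical layers 7 fell and 4 rose, and of 19 deep-layer genes 10 fell and 3 rose. The median log2 changes were -0.35 and -0.29. The summed levels were higher at P21, at 930.8 to 1001 TPM at P7 and 1140 to 1257 TPM at P21 for upper layers and at 1985 to 2236 TPM and 3491 to 3824 TPM for deep layers. Lamp5 in the upper-layer list and Pcp4 in the deep-layer list gained more TPM than these sums did. The other members of each list together therefore stood lower at P21. Lamp5 (ENSMUSG00000027270), a membrane protein gene of superficial layers and of some interneurons, was at 13.4, 18.9 and 15.8 TPM at P7, 303, 238 and 207 TPM at P14 and 403, 383 and 376 TPM at P21, a log2 difference of 4.52 ± 0.15 (limma adjusted p = 3.33e-09). Cux2 rose from 22.6 to 35.4 TPM, and its relative Cux1 fell from 89.8 to 53.4 TPM. Mdga1 and Lhx2 fell from 26.2 to 8.81 TPM and 94.1 to 45.9 TPM, and Rorb, the factor of layer 4, did not pass at 7.27, 7.52 and 8.04 TPM at P7 and 6.84, 5.95 and 7.21 TPM at P21 (limma adjusted p = 0.0837), although it passed as lower without P21 replicate 3 (limma adjusted p = 0.0425). In deep layers Fezf2, which specifies subcerebral projection neurons, fell from 61.7 to 37.7 TPM, Ldb2 from 67.3 to 33.8 TPM and Crym from 264 to 155 TPM. Pcp4, a calmodulin-binding peptide gene, rose from 1141 to 2957 TPM, Cplx3 from 13.1 to 21.8 TPM and Tbr1 by 0.21 on the log2 scale, a call lost without P21 replicate 1 (limma adjusted p = 0.0513). Hippocampal subfield genes rose in 9 of 19 cases tested and fell in 4, led by C1ql2 of the dentate gyrus (1.22 to 9.47 TPM) and Rgs14 of CA2 (5.77 to 28.2 TPM). Cortex and hippocampus were lysed together, so the weight of each region and its content per cell cannot be told apart.

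The P14 libraries show when the change happened. Of the 1361 genes that rose at least 2-fold, 1242 had a P14 mean between those of P7 and P21, 103 a P14 mean above both and 16 below both. Of the 1425 that fell at least 2-fold, 1365 lay between, 55 below both and 5 above both. The median share of the log2 change present at P14 was 72.3% for genes that rose and 66.1% for those that fell, and at least 50% was present in 1139 of the 1361 and 1148 of the 1425. The comparison of P14 with each end shares libraries with that of P21 with P7, so these shares describe the same values and add no test. Single genes differed from this middle course. Kif21b fell mainly after P14, and Igfbp6 gained most of its TPM after P14. The cholesterol gene Fdps and the receptor subunit gene Cacng3 were near their P21 level at P14 (65.7 and 227 TPM).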

How the data were processed

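Polyadenylated RNA was sequenced from 9 pull-down and 2 input libraries. The authors deposited 1 table of TPM with 77179 Ensembl gene IDs and a column per library, all of which were used. The submitters' processing notes list genome build mm39 and, as tools, Salmon 1.10.0, fastp 1.0.1 and DESeq2 1.46.0. What each did, which annotation release was used and whether counting used strand is not stated there. TPM is a share of a fixed total, so abundant genes that change shift all others, and depth is unknown.

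Genes that reached 1 TPM in 2 or more of the 6 libraries were fitted as log2(TPM + 1) with limma 3.58.1 in R 4.3.3, with 4 group means over all 11 libraries (7 residual degrees of freedom), a trend and Benjamini-Hochberg adjustment. The code was tested on simulated data. The P7 and P21 pull-downs share replicate numbers, but deviations of same-numbered libraries correlated by at most 0.073, so no block was used. Replicate 3 had its sex-linked pattern at both ages. Symbols matched 50886 IDs, and 1821 tested genes had none.

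The members, 54 gene lists (1367 distinct genes, of which 87 were not tested) and 32 pairs were chosen with earlier results of these data known, so no list is tested. Lists are described by counts beside the share of all genes. Named genes were the 15 largest rises and 15 largest falls among called genes with a symbol other than a predicted, clone-based or pseudogene one, at least 10 TPM in the mean of the higher age and no overlap of the ages, the 8 largest gains and 8 largest losses of mean TPM among called genes, the 3 called members of each list with the largest rise and fall, all members of lists of at most 15 genes, both genes of each pair, and Rpl10a, Neurod6 and Slc17a7. The other genes named were picked once their values were known: Aqp4, Bc1, C1qa, Chn1, Fos, Fosb, Fosl2, Gad1, Gad2, Gap43, Hmgcs1, Homer1, Idi1, Kcnc2, Kcnj6, Ncam1, Npas4, Slc32a1, Snap25, Sox4, Sox11, Syn3, Syp and Syt1. Promoter windows are from RefSeq (GRCm38.p6), not the build named for the TPM. Alternatives were pseudocounts, filters, scalings, moderation, a replicate block, fewer libraries in the fit and each of the 6 libraries left out. Some genes that the rule names are not reported here.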

Additional observations from a re-analysis of the deposited data

How the results depend on the processing

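The number of genes called ran from 7688 to 11917 over all alternatives, and from 10367 to 10688 with 1 of the 6 libraries left out. With only the 6 compared libraries in the fit 10567 genes were called, and with the 9 pull-down libraries 10900. Counts of 2-fold changes depended on low values: 688 genes rose and 656 fell at least 2-fold with a pseudocount of 5 TPM, and 881 and 927 among genes averaging 5 TPM or more, against 1361 and 1425. Median-of-ratios scaling gave 5575 genes that rose and 5553 that fell and quantile normalisation 5404 and 5770. Same-numbered P7 and P21 libraries correlated in their deviations from the group means by 0.035, 0.025 and 0.073. P21 replicate 2 correlated best with P7 replicate 1. Apart from the sex-linked genes that set replicate 3 apart at both ages, the pairing thus rests on a number. The replicate block gave 11078 calls, and Eif2s3y passed with it (limma adjusted p = 0.0183, against 0.58 without a block). Between 26 and 28 of the 32 pairs moved to the later gene under the alternatives run for pairs. Of 4454 recomputed values of 264 of the named genes 4412 kept their side of the threshold, 27 lost and 14 gained a call, and 1 reversed, Selenow, at 0.77 after quantile normalisation. The 4412 include values of genes that passed in neither fit, whatever their direction. The cause of these shifts was not tested. List medians changed sign in 9 of 54 lists. Keeping genes averaging 5 TPM or more tested fewer genes and turned the medians of endothelial markers (0.52 to -0.13), oligodendrocyte precursor markers (0.46 to -0.79), MHC and interferon genes (0.46 to -0.19) and inhibitory neuron markers (-0.02 to 0.36). Kinesin genes went from 0.20 to -0.14 and mural and fibroblast markers from 0.15 to -0.02 with no filter, and sex-linked genes from -0.34 to 0.11 without P7 replicate 2. Proteasome genes with median-of-ratios scaling were 5 that rose and 12 that fell. Depth is unknown, and 3 libraries per age limit the precision.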

Other observations

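Neuropeptide and secretory granule genes rose in 13 of 23 cases and fell in 5. Penk, the precursor of enkephalins, was at 16.1, 12.7 and 12.5 TPM at P7, 25.9, 32.3 and 31.0 TPM at P14 and 65.4, 59.1 and 54.2 TPM at P21, a log2 difference of 2.04 ± 0.11 (limma adjusted p = 6.44e-08). The granule genes Vgf and Chgb rose from 74.0 to 209 TPM and 107 to 303 TPM. Nts, which encodes neurotensin, was at 47.0, 38.0 and 35.5 TPM at P7, 9.96, 8.75 and 9.46 TPM at P14 and 3.44, 2.92 and 3.05 TPM at P21, a log2 difference of -3.31 ± 0.11 (limma adjusted p = 3.29e-09), and Grp, the gastrin-releasing peptide gene, fell from 80.0 to 22.9 TPM. Receptors for acetylcholine, serotonin, dopamine, noradrenaline and endocannabinoids, with their enzymes, rose in 16 of 30 cases tested and fell in 6. The noradrenaline receptor genes Adra1d and Adrb1 rose from 3.12 to 25.9 TPM and 12.0 to 29.6 TPM, and Mgll, which breaks down the endocannabinoid 2-AG, from 33.8 to 107 TPM. The cannabinoid receptor gene Cnr1 fell from 24.2 to 17.2 TPM, the serotonin receptor gene Htr7 from 14.5 to 8.20 TPM and the nicotinic subunit gene Chrna5 from 2.60 to 1.07 TPM. Regulators of G protein signalling rose in 8 of 18 cases and fell in 4, with Rgs8 and Rgs4 going from 9.21 to 30.7 TPM and 80.6 to 244 TPM.

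Imprinted genes fell in 12 of 26 cases tested and rose in 5. The growth-restraining noncoding RNA H19 fell from 8.46 to 0.743 TPM, the phosphatase gene Inpp5f from 378 to 82.9 TPM and Zim1 from 4.46 to 0.305 TPM, while Impact rose from 17.9 to 65.7 TPM and Mest from 8.90 to 24.7 TPM. Among growth factors and neurotrophins 9 of 30 rose and 11 fell. Ntf3 (neurotrophin 3) was at 14.4, 13.7 and 13.8 TPM at P7 and 2.32, 2.76 and 2.66 TPM at P21 and Bdnf at 4.82, 6.18 and 6.61 TPM at P7 and 20.7, 19.6 and 21.1 TPM at P21, so that these 2 neurotrophins moved in opposite directions without overlap. MHC class I and interferon genes rose in 8 of 15 cases tested and fell in 4, among them H2-T23, which rose from 2.71 to 8.07 TPM, and H2-D1, which fell from 24.8 to 13.5 TPM. Protein folding and stress genes rose in 14 of 29 cases and fell in 8, with the endoplasmic reticulum gene Sdf2l1 going from 6.08 to 26.1 TPM, the stress factor Atf4 falling from 197 to 132 TPM and the serine synthesis gene Phgdh falling from 11.0 to 4.02 TPM. Lysosome and autophagy genes rose in 19 of 34 cases and fell in 7, and Gabarapl1, which coats autophagosomes, rose from 441 to 992 TPM. The deiodinase gene Dio2, which activates thyroid hormone and is mainly astrocytic, rose from 1.13 to 6.77 TPM, and astrocyte markers rose as given above. The noncoding RNA Bc1, chosen after its values were seen, was at 3.28, 8.25 and 5.49 TPM at P7 and 28.5, 147 and 102 TPM at P21, and P21 replicate 2, the high library for haemoglobin, was also its highest.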
